A study of Arabidopsis thaliana with 12 samples.

Results

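The sugar transporters examined here are 4 SWEET genes, SWEET2 (AT3G14770), SWEET11 (AT3G48740), SWEET13 (AT5G50800) and SWEET16 (AT3G16690), and AT3G05150, a gene of the ERD6-like family. Each was followed through the probe sets whose array annotation names it alone, which gave 1 probe set per gene. They are 5 of the 13350 genes that 13513 of the array's 22810 probe sets name alone. The 5 genes were chosen with earlier results of these arrays known. SWEET2 and SWEET13 were selected on their measured difference between cngc4 and ws2, and SWEET16 on its lower signal in cngc1 than in ws2. AT3G05150 was selected on its difference between cngc4 and the other mutants, and SWEET11 was included as a phloem gene. Differences that led to the choice, and differences that share arrays with them, are therefore given as descriptions. Where an interval or a call is given for such a difference, it is not read as a test.

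Whole-root RNA of Arabidopsis thaliana was hybridised to 12 single-colour GeneChips, 3 for each of 4 genotypes, all at growth stage 3.90. The genotypes are the mutants cngc4 and cngc1, named for cyclic nucleotide-gated channel genes, the potassium channel mutant akt1 (line akt1-1, in Wassilewskija), and ws2, the Wassilewskija wild type. The accession behind the cngc lines is not given in the labels. Genotype and accession therefore cannot be told apart when cngc4 or cngc1 is set against ws2 or akt1. Roots of 20 to 40 plants went into each sample. Whether the 3 samples of a genotype were grown separately is not stated, so the p-values reflect the spread among these samples alone, which may be technical. Levels are signals as deposited, in arbitrary units, and differences between genotypes are differences of log2(signal + 16), which understate the change of weak probe sets. In whole roots, fewer cells of a type and less RNA per cell cannot be told apart.

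SWEET proteins are small membrane carriers that let sugars move down their gradient, into or out of a cell or its vacuole. In Arabidopsis SWEET11 works with SWEET12 at the plasma membrane of phloem parenchyma cells, where sucrose leaves the cell for loading into the phloem, and SWEET13 also carries sucrose. SWEET2 and SWEET16 lie at the vacuolar membrane, and SWEET2 is known in roots for retaining sugar that would otherwise be lost to the soil. ERD6-like proteins belong to a separate, larger family of monosaccharide transporters, several of which sit at the vacuolar membrane. No role is given here for AT3G05150 itself. Of the 5 genes 4 lie on chromosome 3 and SWEET13 on chromosome 5. The next 2 genes after AT3G05150 are AT3G05155 and AT3G05160, ERD6-like genes too that no probe set names alone, and SWEET13 lies beside SWEET10.

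All 12 arrays had a median signal between 43.3 and 48.5. For actin, the 3-prime probe set read 1.42 to 1.54 times the 5-prime one in cngc1, below every cngc4 (1.64 to 1.94) and akt1 (1.58 to 2.06) array. In ws2 it read 1.53 to 1.94 times as much. For GAPDH the same ratio was 1.12 to 1.24 in cngc1, 1.06 to 1.25 in cngc4, 1.12 to 1.19 in akt1 and 1.03 to 1.09 in ws2. Background was highest on cngc1 replicate 3, at 143. The titles mark cngc4 replicate 1 and ws2 replicates 2 and 3 as repeats, without saying of what. No check of the labels against the channel genes was made, since those genes were not analysed here. Of 15 root markers EXPA7 and EXPA18 could be followed, and both lay above the 40th percentile on every array. Of 12 leaf photosynthesis markers 5 were followed (RCA, LHCB4.1, SBPASE, CHLM and PRK), and their summed signal ran from 646 to 757 in cngc4, against 293 to 440.0 in ws2. It ran from 309 to 416 in cngc1 and from 286 to 315 in akt1. This summed signal differed between cngc4 and ws2, as did AT3G05150, SWEET2, SWEET13, PMT4, TMT2 and AT1G19450 below, and its part in their differences was not tested.

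SWEET2, the vacuolar carrier known for sugar retention in roots, was highest in cngc4 and lowest in cngc1. Its signal was 157, 246 and 206 in cngc4, against 143, 120 and 137 in ws2. It was 102, 93.1 and 105 in cngc1 and 112, 117 and 142 in akt1. The 3 cngc4 arrays lay above all others and the 3 cngc1 arrays below all others, while akt1 and ws2 overlapped. The means were 203 ± 44.6 in cngc4, 99.8 ± 6.01 in cngc1, 124 ± 16.2 in akt1 and 133 ± 12.0 in ws2.

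The difference of SWEET2 between cngc4 and ws2 was 0.54 on the log2 scale (standard error 0.15), a fold of 1.45. Within the repeat-marked arrays (1 cngc4 and 2 ws2) it was 0.26, and within the unmarked arrays (2 cngc4 and 1 ws2) it was 0.60. Over 23 alternative settings it ran from 0.40, without cngc4 replicate 2, to 0.70, without cngc4 replicate 1. The log2 difference from ws2 was -0.36 in cngc1 and -0.10 in akt1. Set against the other mutants, and sharing the same cngc4 arrays, the log2 difference of cngc4 was 0.90 from cngc1 and 0.63 from akt1. Without cngc4 replicate 2 the difference from akt1 was 0.49. Between cngc1 and akt1, which share no array with the choice of SWEET2, the log2 difference was -0.27 with a 95% interval of -0.59 to 0.05 (limma adjusted p = 0.517).

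**Figure D1:**
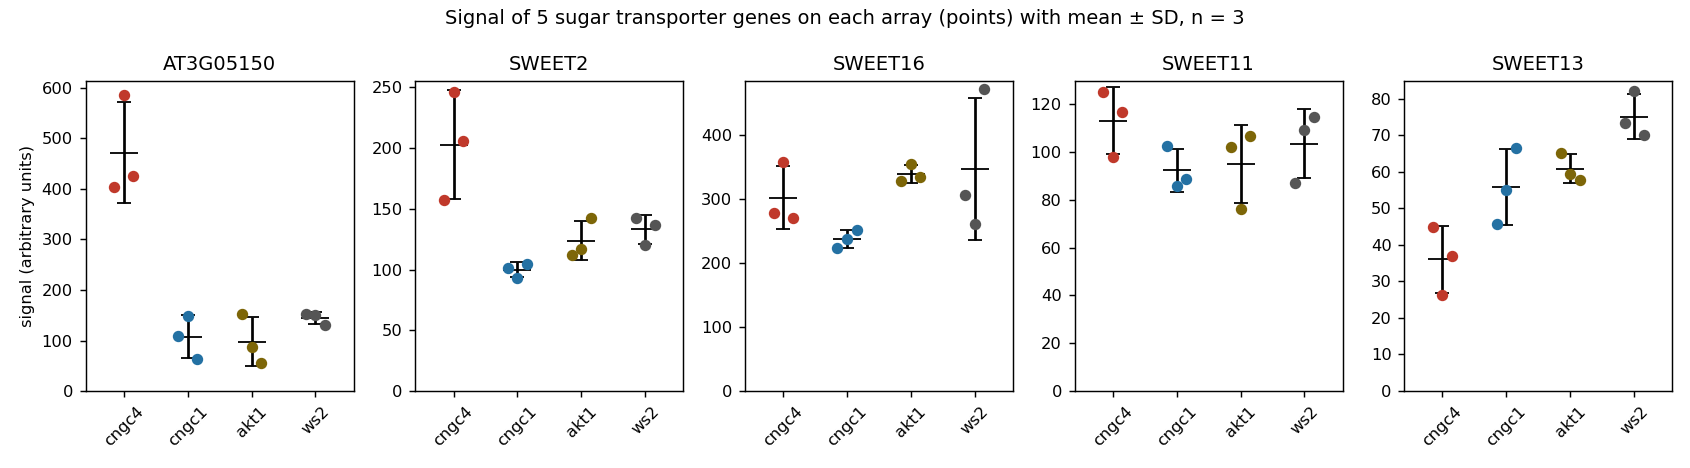
Signal in arbitrary units (vertical axes, from 0) of the 5 transporter genes on each array, by genotype; points are arrays and bars give the mean ± SD (n = 3). The 3 cngc4 arrays lie above all others for AT3G05150 and SWEET2 and below all others for SWEET13, while the genotypes overlap for SWEET11.

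SWEET16, the other vacuolar SWEET, was lowest in cngc1. Its signal was 224, 238 and 251 in cngc1, against 308, 261 and 473 in ws2. It was 278, 359 and 270.5 in cngc4 and 329, 356 and 336 in akt1. All 3 cngc1 arrays lay below every other array, and the 3 ws2 arrays were widely spread. The means were 238 ± 13.7 in cngc1 and 347 ± 111 in ws2, with 302 ± 49.1 in cngc4 and 340.0 ± 13.8 in akt1.

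The log2 difference of SWEET16 between cngc1 and ws2 was -0.48 (standard error 0.18). Without ws2 replicate 3, the highest array, it was -0.24. Against akt1, whose arrays were closer together, cngc1 was lower by a log2 difference of -0.49. The actin ratio was lower in cngc1 than in akt1, as given above, while their GAPDH ratios overlapped. The part of either ratio in these differences was not tested. The log2 difference from ws2 was -0.16 for cngc4, or 0.08 without ws2 replicate 3, and 0.01 for akt1. The log2 difference of cngc4 from akt1, which shares no array with the choice of SWEET16, was -0.17 with a 95% interval of -0.55 to 0.21 (limma adjusted p = 0.596).

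SWEET11, the phloem sucrose carrier, showed no genotype apart from the rest. Its signal was 125, 97.7 and 117 in cngc4, against 86.9, 109 and 114 in ws2. It was 102, 85.7 and 88.7 in cngc1 and 102, 76.2 and 107 in akt1, so neighbouring genotypes in the order cngc4, ws2, akt1, cngc1 all overlapped. The log2 difference of cngc4 from ws2 was 0.11 with a 95% interval of -0.19 to 0.42 (limma adjusted p = 0.672). The largest of the 6 differences was 0.25, for cngc4 against cngc1, with an interval of -0.06 to 0.56 (limma adjusted p = 0.322). These intervals leave room for a modest difference in either direction. SWEET11 was the only gene of a list of 6 phloem markers that could be followed, so no other phloem gene is set beside it.

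SWEET13, a sucrose carrier, ran the other way and was lowest in cngc4. Its signal was 44.8, 26.4 and 36.9 in cngc4, against 73.3, 82.0 and 69.9 in ws2. It was 45.8, 54.9 and 66.5 in cngc1 and 65.2, 59.4 and 57.8 in akt1. The cngc4 arrays lay below every array of the other genotypes, and the ws2 arrays lay above every mutant array. cngc1 and akt1 overlapped, and cngc4 replicate 2 was under the 40th percentile of its array, so the size of the difference is not exact.

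The mean signal of SWEET13 was 36.0 ± 9.23 in cngc4, 55.7 ± 10.4 in cngc1, 60.8 ± 3.89 in akt1 and 75.1 ± 6.24 in ws2 (SD, n = 3 each). The log2 difference of cngc4 from ws2 was -0.82 (standard error 0.15), a fold of 1.77 lower. It was -1.09 with no offset and -0.48 with an offset of 64. It was -0.59 within marked arrays and -0.91 within unmarked ones. For cngc1 against ws2 the log2 difference was -0.35. For cngc4 it was -0.58 against akt1 and -0.47 against cngc1, which share the same cngc4 arrays. Between cngc1 and akt1 the log2 difference was -0.11, with a 95% interval of -0.42 to 0.21 (limma adjusted p = 0.807). SWEET10, the gene next to SWEET13 on the chromosome, read 31.3, 26.7 and 35.3 in cngc4, against 31.4, 32.8 and 35.3 in ws2, and these arrays overlapped (-0.07, limma adjusted p = 0.841). SWEET10 was near the filter, with 1 cngc4 and 1 ws2 array not above the 40th percentile, so a difference could be missed.

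AT3G05150 stood far higher in cngc4 than in any other genotype. Its signal was 403, 587 and 426 on the 3 cngc4 arrays, against 152, 150 and 131 on the ws2 arrays (replicates 1 to 3). It was 109, 149 and 64.1 in cngc1 and 152, 86.9 and 55.5 in akt1. The lowest cngc4 array was thus well above the highest array of every other genotype, while the other genotypes overlapped one another. The means were 472 ± 100 in cngc4, 108 ± 42.6 in cngc1, 98.0 ± 49.0 in akt1 and 144 ± 11.7 in ws2 (SD, n = 3 each).

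On the log2 scale AT3G05150 was higher in cngc4 than in ws2 by 1.59 (standard error 0.28), a fold of 3.01. The difference from akt1 was 2.17 and that from cngc1 was 2.02, and these 3 comparisons share the cngc4 arrays. The difference from ws2 was 1.43 within marked arrays and 1.62 within unmarked ones. Over 23 alternative settings it ran from 1.35 to 1.70. The spread was wide in cngc1 and akt1, whose lowest arrays read 64.1 and 55.5. The log2 differences from ws2, -0.43 for cngc1 and -0.57 for akt1, had 95% intervals of -1.02 to 0.16 and -1.16 to 0.01. Without cngc1 replicate 3 the first was -0.15, and without akt1 replicate 3 the second was -0.28.

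**Figure D2:**
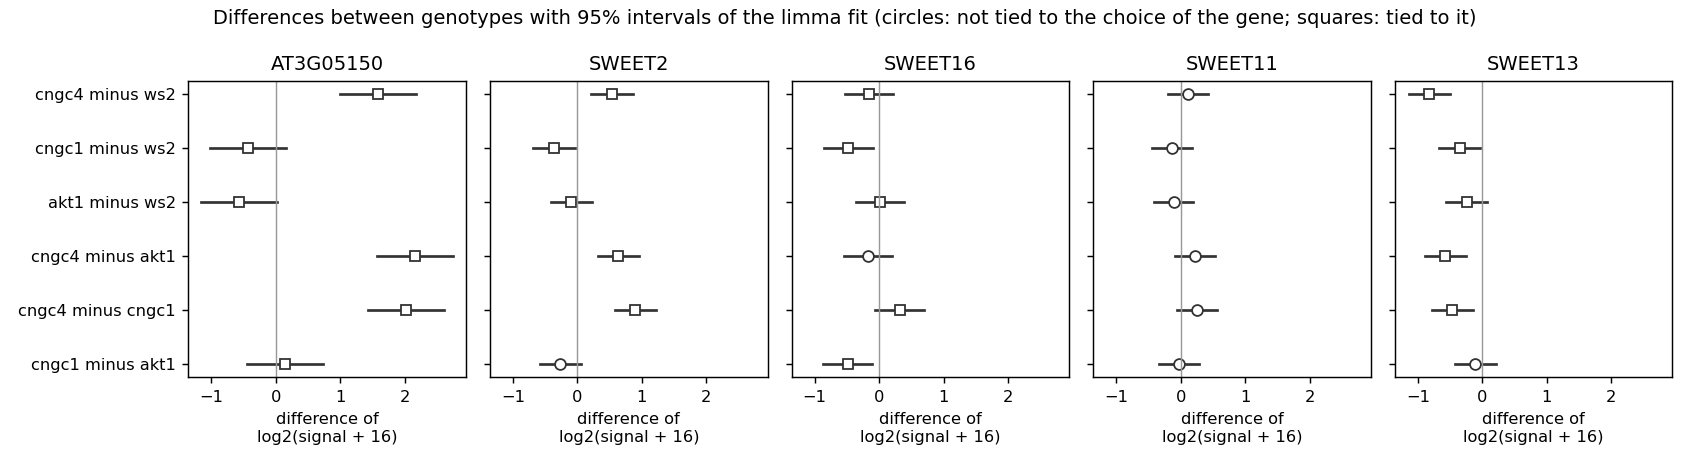
Difference of log2(signal + 16) between genotypes (horizontal axes) for each gene and each of the 6 comparisons, first genotype minus second, with 95% intervals of the limma fit; circles are comparisons that share no array with the choice of the gene, and all of SWEET11, and squares are the others. In the 3 comparisons of cngc4, AT3G05150 and SWEET2 lie to the right of 0 and SWEET13 to the left. The intervals of squares are not read as tests.

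Beside the 5 members, the other sugar transporters show how many genes of this kind moved. A list of 79 transporter genes was drawn up from the SWEET, hexose (STP), sucrose (SUC), ERD6-like, vacuolar (TMT and VGT), plastid glucose and polyol and inositol families. Of these 39 were named alone by a probe set and 27 had enough signal to be tested. The SUC genes and SWEET12 were not analysed here. Of the 16 SWEET genes on the array 9 were tested, and SWEET3, SWEET4, SWEET5, SWEET7, SWEET9, SWEET14 and SWEET15 lay under the filter on low signal.

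No other SWEET gene was called in any comparison. SWEET17, a fructose carrier of the vacuolar membrane, read 226, 331 and 312 in cngc4, against 384, 286.5 and 328 in ws2. It read 260.5, 363 and 411 in cngc1 and 246, 500.3 and 451 in akt1, and all genotypes overlapped. SWEET1, a glucose carrier, averaged 73.0 ± 6.40 in cngc4, 69.3 ± 5.35 in cngc1, 75.0 ± 10.3 in akt1 and 80.2 ± 21.7 in ws2 (SD, n = 3 each). SWEET6 and SWEET8 were near the filter, at 27.3 ± 3.44 and 19.6 ± 3.45 in cngc4, against 36.9 ± 6.78 and 29.5 ± 7.20 in ws2. Signals of different probe sets are not on 1 scale, so the genes are not ranked against each other.

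Between cngc4 and ws2, 3 of the 22 tested transporters that are not members were called (a limma adjusted p of 0.05 over all tested probe sets), or 13.6%, with PMT4 higher and TMT2 and AT1G19450 lower. Of all 14745 tested probe sets 9.09% were called, 4.69% higher and 4.39% lower in cngc4. The members AT3G05150 and SWEET2 (higher) and SWEET13 (lower) bring the count to 6 of 27. For these 3 of the 5 members the cngc4 and ws2 arrays did not overlap, as for 30.9% of all tested probe sets. They were chosen with this comparison known, so nothing is read from either count. Over the 22 others 11 differences of cngc4 from akt1 were positive and 11 negative (median -0.01, against -0.004 over all tested probe sets). From cngc1 10 were positive and 12 negative (median -0.04, against -0.04). From ws2, whose arrays also serve the comparisons of cngc1 and akt1 below, 5 were positive and 17 negative. The median from ws2 was -0.19, where that over all tested probe sets was -0.03. The count over the 27 was 2 without cngc4 replicate 2, 2 without ws2 replicate 2, 3 with the repeat mark as a covariate and 0 without the marked arrays. Over all probe sets 51.6% of the calls were higher in cngc4 than in ws2, and 62.6% with each array centred on its median. That centring left 3 higher and 3 lower in the list.

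PMT4, of the polyol and monosaccharide transporter family, read 218, 237 and 154 in cngc4, against 139, 107 and 118 in ws2, without overlap. Its log2 difference was 0.65 (limma adjusted p = 0.0155), and the call was lost without cngc4 replicate 1 or 2, without ws2 replicate 2 and without the marked arrays. TMT2, which loads sugar into the vacuole, read 39.9, 30.2 and 28.6 in cngc4, against 74.5, 73.1 and 51.3 in ws2. Its log2 difference was -0.75 (limma adjusted p = 0.0208). Its cngc4 replicate 3 array was under the 40th percentile, and its values with no offset and with an offset of 64 were -1.01 and -0.42. The call was lost without cngc4 replicate 2 or 3, without ws2 replicate 1 or 2, without a filter, with the repeat mark as a covariate and without the marked arrays.

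AT1G19450, an ERD6-like gene like AT3G05150, was lower in cngc4 than in ws2. It read 432, 309 and 458 in cngc4, against 568, 590.2 and 654 in ws2, again without overlap. Its log2 difference was -0.59 (limma adjusted p = 0.0208), and the call was lost without cngc4 replicate 2, without ws2 replicate 2 or 3, with the repeat mark as a covariate and without the marked arrays. Of the 8 tested ERD6-like genes beside AT3G05150, 7 did not pass. TMT1, a second vacuolar loader of the TMT group, read 775, 872 and 722 in cngc4, against 792, 702 and 815 in ws2, and overlapped (0.03, limma adjusted p = 0.899).

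**Figure D3:**
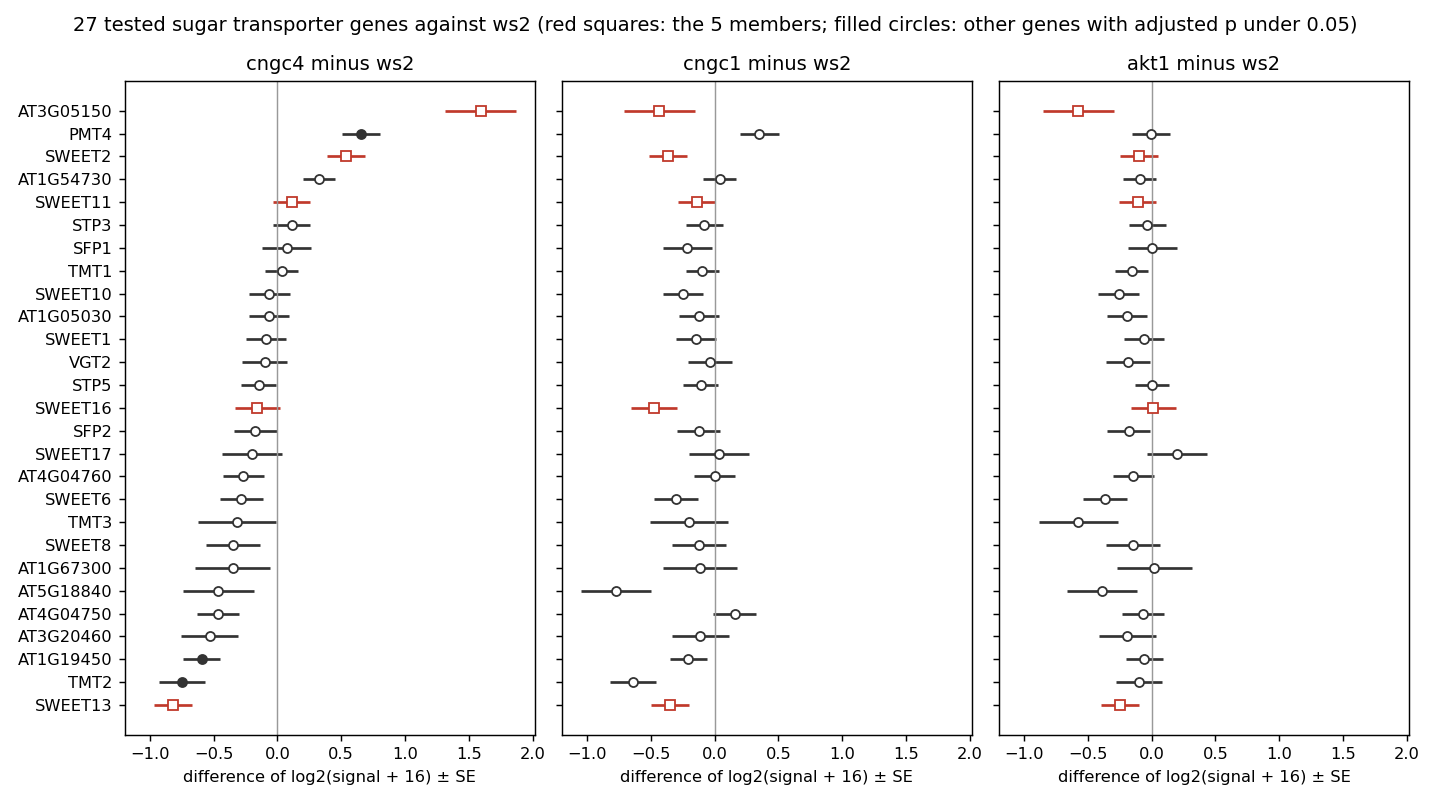
Difference of log2(signal + 16) from ws2 (horizontal axes, ± standard error) of the 27 tested sugar transporter genes in cngc4, cngc1 and akt1, ordered by the cngc4 value; red squares mark the 5 members and filled circles the other genes past an adjusted p of 0.05 over all probe sets. The 3 filled circles, PMT4, TMT2 and AT1G19450, are in the cngc4 panel.

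Against akt1, 3 of the 22 transporters that are not members were called in cngc4, or 13.6%, with PMT4 higher and TMT2 and AT1G19450 lower, where 8.88% of all tested probe sets were called (4.54% higher and 4.34% lower). The members AT3G05150 and SWEET2 (higher) and SWEET13 (lower) bring the count to 6 of 27. Arrays of 3 of the 5 members did not overlap, as for 28.7% of all tested probe sets. AT3G05150 was chosen on this comparison, and SWEET2 and SWEET13 on the same cngc4 arrays, so nothing is read from the members' counts. The comparison shares those arrays with that against ws2. The count over the 27 was 1 without cngc4 replicate 2, 1 without akt1 replicate 2 and 2 without akt1 replicate 3. It was 3 without a filter and 3 without the marked arrays.

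Against cngc1, 1 of the 22 transporters that are not members, AT4G04750, was called in cngc4 and was lower. That is 4.55%, where 5.17% of all tested probe sets were called (3.23% higher and 1.94% lower). The members AT3G05150 and SWEET2 (both higher) bring the count to 3 of 27. Arrays of 4 of the 5 members, all but SWEET11, did not overlap, as for 27.4% of all tested probe sets. AT3G05150 was chosen on this comparison, and SWEET2, SWEET13 and SWEET16 on arrays it shares, so nothing is read from the members' counts. AT4G04750, another ERD6-like gene, read 20.6, 22.5 and 24.8 in cngc4, against 35.5, 38.9 and 58.5 in cngc1 (-0.62, limma adjusted p = 0.043). Every cngc4 array was under the 40th percentile there, so the size is not exact, and the value was -0.94 with no offset and -0.32 with an offset of 64. The call held in 10 of 22 alternative settings. It was lost without any 1 of the cngc4 arrays, without cngc1 replicate 2 or 3 and without akt1 replicate 2 or 3, and also with quantile normalization, without a filter, with the repeat mark as a covariate, in a fit of those 2 groups and without the marked arrays. Of all calls in this comparison 62.5% were higher in cngc4, and 73.6% with median centring.

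In cngc1 none of the 27 transporters was called against ws2 by limma, where 0.00678% of all tested probe sets were called. An unadjusted limma p under 0.05 was found for 6 of the 27, 3 of them members, and for 1080 of all 14745 tested probe sets. Of the 22 non-members, 17 had a negative difference in cngc1, with a median of -0.12 against 0.01 over all tested probe sets. For akt1 the count was 18, with a median of -0.12 against -0.02. Both comparisons share the ws2 arrays, as does that of cngc4 with ws2. In cngc1 the 5 members all had a negative difference, and 3 of them, SWEET2, SWEET13 and SWEET16, had cngc1 arrays all below the ws2 arrays. Groups were apart in either direction for 12.8% of all tested probe sets. The members were chosen with this comparison known, so nothing is read from that count. TMT2 read 41.2, 25.3 and 44.6 in cngc1 (-0.64 from ws2, limma adjusted p = 0.531) and did not pass. Its cngc1 arrays lay below every ws2 array and overlapped those of cngc4. The log2 difference of cngc4 from cngc1 was -0.10 (limma adjusted p = 0.776), so TMT2 is not set apart in cngc4 from cngc1.

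In akt1 limma called 0 of the 27 against ws2, with 1 at an unadjusted p under 0.05, and 0% of all tested probe sets were called, 746 of them having an unadjusted p under 0.05. For SWEET13 the 3 akt1 arrays lay below the 3 ws2 arrays, with a log2 difference of -0.24, the 1 member whose groups were apart, as they were for 9.66% of all tested probe sets. Between cngc1 and akt1 limma called 0 of the 27, where 0.00678% of all tested probe sets were called. There 3 of the 27, 1 of them a member, and 1651 of all 14745 tested probe sets had an unadjusted p under 0.05. SWEET2 and SWEET16 had cngc1 arrays all below the akt1 arrays, and 14.9% of all tested probe sets had groups apart. SWEET13 was chosen on the ws2 arrays used above and SWEET16 on these cngc1 arrays, so nothing is read from the members' counts. Of 19 sugar breakdown genes (invertases, sucrose synthases and hexokinases), BFRUCT3 and cwINV6 could be tested, and neither passed in any comparison.

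The genes whose signal followed each member most closely over the 12 arrays were found by Pearson's r of log2(signal + 16) among 8131 other tested probe sets that name a single gene. These values describe likeness, and the 12 arrays share their genotype groups, so a gene that is high in cngc4 alone scores well for AT3G05150. Its closest were AT3G06470, GAT1_2.1 (a glutamine amidotransferase-like gene) and AT1G76600, each at 0.97. SWEET2 was closest to SIM (0.95), an inhibitor of the mitotic cycle, and to AT2G23450 (0.93) and AT1G06200 (0.92). SIM, like SWEET2, was highest in cngc4 (mean signal 432) and lowest in cngc1 (304).

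SWEET13 was closest to AT4G25250 (0.95), AT3G05280 (0.94) and SKU5 (0.93), a protein of directional root growth. The mean signal of SKU5 was 427.5 in cngc4, 643 in cngc1, 747 in akt1 and 853 in ws2, the same order of genotypes as SWEET13. SWEET16 was closest to AT2G47630 (0.90), AT5G59930 (0.87) and AT2G38000 (0.87). SWEET11 had the weakest likeness, with AT1G76460 (0.84), AT5G42840 (0.83) and AT1G64150 (0.82).

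**Figure D4:**
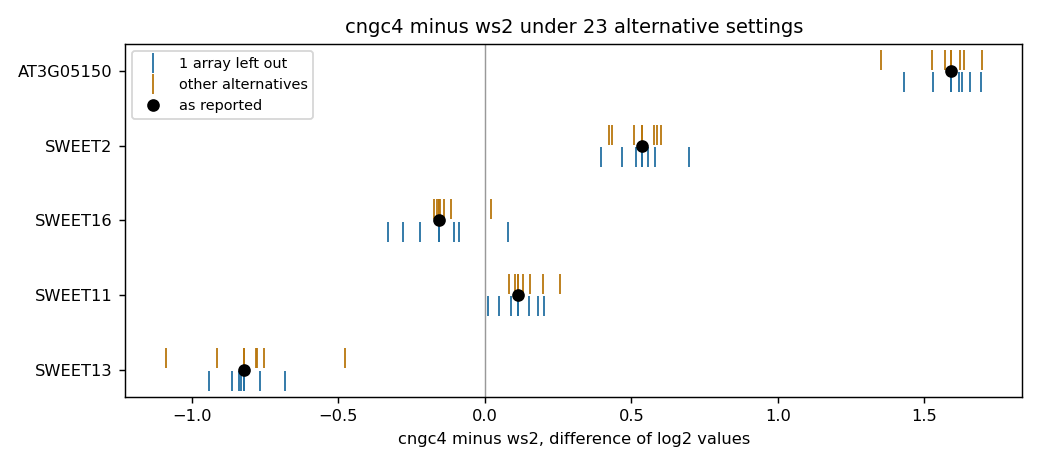
Difference of log2 values of cngc4 minus ws2 (horizontal axis) for the 5 genes as reported (points), with 1 of the 12 arrays left out (lower ticks) and under 11 other alternative settings (upper ticks). AT3G05150 and SWEET2 stay above 0 and SWEET13 below 0 in all 23 settings, while SWEET16 takes both signs.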

How the data were processed

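The authors deposited a linear signal intensity for each probe set on each array. The software and annotation behind it: not given in the sources used here. Trimmed means were nearly equal on all arrays, so a scaling step came before deposit. The titles, source names and growth labels gave the 4 groups.

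Each signal was raised by an offset of 16 and put on the log2 scale without renormalizing. Of 22810 probe sets 64 are controls, which were dropped, and 14745 exceeded the 40th percentile of their array on 3 or more arrays and were tested. A limma model (version 3.58.1, R 4.3.3) with 1 mean per genotype was fitted over the 12 arrays, using eBayes with a trend in the variance. All p-values are two-sided and adjusted by Benjamini-Hochberg over the probe sets tested in each of 6 comparisons. Permuting 3 arrays against 3 gives no exact p under 0.10 and was not done. The array's annotation table names several genes for 503 probe sets, and 8794 are unnamed here. Names were matched to the gene table of TAIR10.1. The array's build is not given, so coordinates are not printed.

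The members and gene lists were chosen with earlier results of these data known. Named are the members, listed genes that passed in any comparison, other SWEET genes, listed neighbours on the chromosome and the 3 most alike genes per member. TMT1 and the sucrose-cleaving genes were named after their values were seen. Equal replicate numbers were not treated as pairs, since deviations correlated above 0.1 in only 3 of 18 such pairs of arrays. No 2 arrays held identical values. The number of arrays limits the precision: log2 differences had a standard error of 0.155 at the median. Figures were drawn with matplotlib 3.10.9.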

Additional observations from a re-analysis of the deposited data

How the results depend on the processing

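Other normalizations (quantile, median), offsets (none, 64), filters (none, 60th percentile), variance models and covariates were tried, and each array was left out in turn. A fit without the 3 repeat-marked arrays, where ws2 is 1 array assumed to vary like the others, was chosen after seeing the data. The cause of the changes below was not tested. The unfiltered fit adjusts over more probe sets, and fits with arrays left out rest on fewer arrays. Over all probe sets the calls of cngc4 against ws2 numbered 1340 as reported, 813 unfiltered, 714 with the mark as a covariate and 13 without the marked arrays. Those of cngc4 against akt1 numbered 1310 as reported, 797 unfiltered and 578 without the marked arrays. Those of cngc4 against cngc1 numbered 762 as reported, 402 unfiltered, 341 in a fit of those 2 groups and 419 without the marked arrays. With 1 array left out, the calls of cngc4 ran from 322 to 1498 against ws2, from 304 to 1548 against akt1 and from 129 to 871 against cngc1, each lowest without cngc4 replicate 2. They ran from 1 to 2 for cngc1 against ws2, from 0 to 1 for akt1 against ws2 and from 1 to 11 for cngc1 against akt1, the 11 without akt1 replicate 1. Of the sugar transport list, cngc4 against ws2 gave 3 with the mark as a covariate, 0 without the marked arrays and 2 to 6 with 1 array left out. The list gave 3 unfiltered, 3 without the marked arrays and 1 to 6 with 1 array left out for cngc4 against akt1, and 2 to 3 with 1 array left out against cngc1. With the replicate number as a block, which is no known pairing, 1273 probe sets were called for cngc4 against ws2 and no listed call changed.

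SWEET11, never called, changed sign in some settings. The difference of cngc1 from ws2 was 0.031 with the mark as a covariate and 0.070 without the marked arrays. That of akt1 from ws2 was 0.060 with the mark as a covariate, 0.098 without the marked arrays and -0.21 to 0.018 with 1 array left out. That of cngc1 from akt1 was -0.16 to 0.049 with 1 array left out. The arrays' number and the weak signals of SWEET13, TMT2 and AT4G04750 limit what can be seen.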
